A study of Mus musculus with 16 samples.

Results

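The genes described here are 10 genes of disulphide bond formation and protein folding in the endoplasmic reticulum (ER), taken by symbol from a table of 38087 genes: the oxidases Ero1lb and Ero1l, the disulphide isomerases P4hb, Pdia3, Pdia4 and Pdia6, the peroxidase Prdx4, and the germ cell chaperones Pdilt, Clgn and Calr3. All 10 were found in the table. They were chosen by earlier results of these libraries, namely the lower level of Ero1lb RNA in germ-free than in conventional animals. Differences between germ-free and conventional libraries in the 10 genes are therefore given as descriptions, with no p-value. Where the text counts how many of them passed a threshold, nothing is read from the count. Whole gonads of C57BL/6j mice aged 15 to 16 weeks, taken 2 to 4 hours after lights on and fed ad libitum, were profiled by total RNA sequencing. Conventionally raised animals (CV), which carry gut microbes, gave 4 ovary and 4 testis libraries, and germ-free animals (GF), raised without microbes, gave 5 ovary and 3 testis libraries. The labels do not give the colony of either group, so germ-free status and colony cannot be told apart. Whether each library is its own animal is likewise unstated, so p-values measure the spread between these libraries, which may be technical.

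Proteins that enter the ER fold there and receive disulphide bonds. Isomerases of the PDI family pass the bonds to their clients and rearrange them, and the Ero1 flavoenzymes reoxidise the isomerases with oxygen, which yields hydrogen peroxide. Prdx4 uses that peroxide to oxidise further isomerase. Male germ cells add their own set: Clgn (calmegin) and Calr3 (calsperin) are germ cell relatives of calnexin and calreticulin, and Pdilt is a testis member of the PDI family that partners with Clgn. Mice without any of these 3 chaperones are known for sperm that lack the mature surface protein ADAM3 and fail to pass the oviduct.

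The promoters of the oxidases and of Pdia6 are shown because a change in ER load is read through a known DNA element, the ER stress element. It was searched on both strands, as CCAAT and CCACG with any 9 bases between them, in RefSeq windows of 300 bases (250 before to 50 after the annotated start, GRCm38.p6). A window was matched for 9 of the 10 genes, the exception being Clgn. The full element occurred in the windows of Ero1lb (as Ero1b in RefSeq) and Pdia6, and in 39 of 32817 windows of all genes, or 0.119%. Capitals mark each CCAAT and each CCACG, with ATTGG and CGTGG being the same letters on the other strand, and neighbouring matches can touch. In Ero1lb (chr13:12565633-12565932, plus strand) the element lies in reverse and its first base is 201 bases before the start. In Pdia6 (chr12:17266339-17266638, plus strand) it lies forward, 98 bases before the start. The window of Ero1l (Ero1a in RefSeq, chr14:45318523-45318822, minus strand) holds 1 CCACG and no CCAAT. Alone, CCAAT occurs in 37.4% and CCACG in 32.8% of all windows.
Ero1lb: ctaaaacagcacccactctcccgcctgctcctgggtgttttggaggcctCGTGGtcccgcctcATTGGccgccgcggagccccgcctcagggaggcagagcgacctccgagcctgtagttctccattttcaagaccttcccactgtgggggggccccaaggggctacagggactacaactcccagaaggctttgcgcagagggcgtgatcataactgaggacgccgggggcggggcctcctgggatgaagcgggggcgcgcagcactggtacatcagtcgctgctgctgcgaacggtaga
Pdia6: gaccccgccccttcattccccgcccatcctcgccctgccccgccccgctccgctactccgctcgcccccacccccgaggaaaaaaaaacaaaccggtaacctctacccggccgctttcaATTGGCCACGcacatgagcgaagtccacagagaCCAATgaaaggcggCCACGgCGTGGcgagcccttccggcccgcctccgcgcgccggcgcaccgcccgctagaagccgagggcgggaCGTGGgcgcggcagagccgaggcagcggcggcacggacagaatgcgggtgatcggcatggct
Ero1l: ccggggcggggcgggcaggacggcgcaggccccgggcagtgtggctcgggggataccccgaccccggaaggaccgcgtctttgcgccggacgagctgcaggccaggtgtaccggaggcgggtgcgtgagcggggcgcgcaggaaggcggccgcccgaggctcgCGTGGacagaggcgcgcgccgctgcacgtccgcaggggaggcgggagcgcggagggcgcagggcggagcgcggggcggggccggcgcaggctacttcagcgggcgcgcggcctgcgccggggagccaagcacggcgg

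The shorter element II (ATTGG and CCACG with any 1 base between them), the unfolded protein response core TGACGTGG and the cyclic AMP element TGACGTCA occurred in none of the 9 matched windows, and in 0.0366%, 0.676% and 1.79% of all windows. Windows of the matched genes also differed in CpG content, the density of methylatable CG pairs. The median of all windows was 7 CG pairs. Ero1l held 49, Pdia3 and Pdia6 38 each, P4hb 31, Pdia4 24, Ero1lb and Prdx4 20 each, and Calr3 16. Pdilt held 3, the lower quartile of all windows. The start used for Prdx4 lies 2294 bases from its gene start in GENCODE, so its window may not be the promoter in use.

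Total counts ran from 12912251 to 15907297 in the 9 ovary libraries and from 25880591 to 28266867 in the 7 testis libraries. At an equal share of the library, counting error was therefore smaller in the testis. Levels are given as CPM, the count of a gene relative to the size of its library, with sizes scaled within each tissue. Beyond counting error, ovary libraries of a group varied by 18.5% for a typical gene and testis libraries by 4.17%. The tissue labels matched their defining markers. The 6 spermatid markers summed to between 11413 and 12618 CPM in the testes and to no more than 2.08 CPM in the ovaries, and 8 oocyte markers to between 161 and 282 CPM in the ovaries and at most 16.3 CPM in the testes. Because tissue is whole, fewer cells of a type and less RNA per cell cannot be told apart in any value below.

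Ero1lb, the oxidase known for high levels in secretory tissues such as pancreas, was lower in GF than in CV libraries of both gonads. In CV ovaries it stood at 36.9, 35.8, 42.4 and 42.8 CPM, and in GF ovaries at 24.3, 19.1, 20.1, 20.9 and 21.8 CPM. In CV testes it stood at 276, 269, 260 and 268 CPM, and in GF testes at 125, 125 and 131 CPM. Every GF library lay below every CV library of its tissue. The ovary log2 fold change, GF over CV, was -0.89 (SE 0.0887) and that of the testis -1.08 (SE 0.0318), or 0.539 and 0.473 of the CV level. In the fit of all 16 libraries the testis difference less the ovary difference was -0.21 on the log2 scale, with an SE of 0.099. Ero1lb rested on 2241 and 1546 counts in CV and GF ovaries, and on 28802 and 10148 counts in CV and GF testes.

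**Figure D1:**
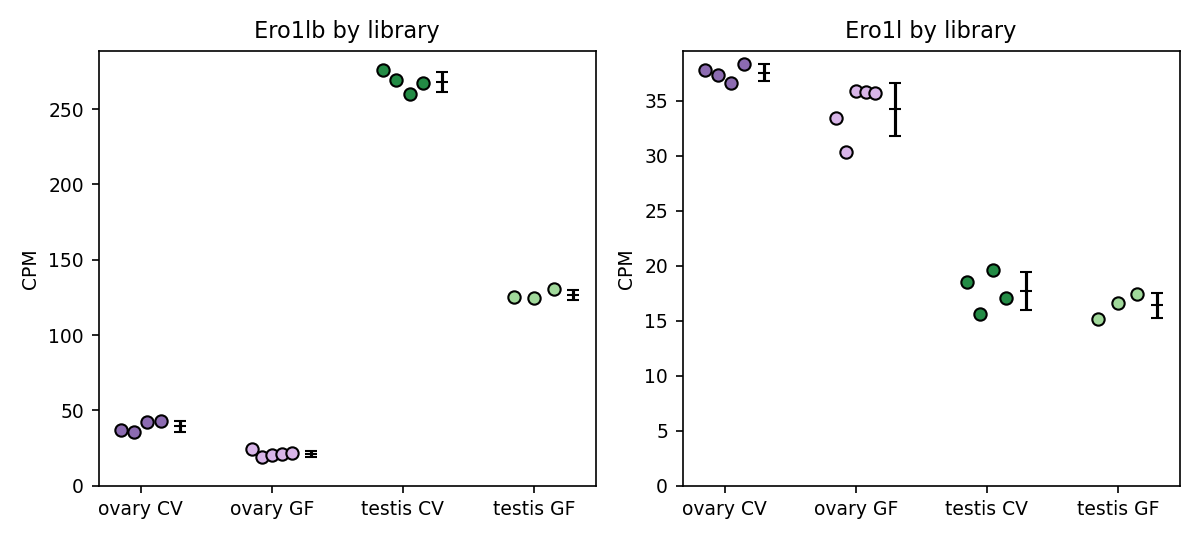
CPM of Ero1lb (left) and Ero1l (right) in each library, by tissue and microbiota (points), with the mean and SD of each group beside the points (n = 4, 5, 4 and 3). Ero1lb sits between 260 and 276 CPM in CV testes and between 125 and 131 CPM in GF testes, while Ero1l lies between 15.1 and 19.6 CPM in all testes.

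The other oxidase showed a much smaller difference in the same direction. Ero1l, the more widely expressed and hypoxia-responsive form, stood at 37.8, 37.3, 36.6 and 38.4 CPM in CV ovaries and at 33.5, 30.4, 35.9, 35.8 and 35.7 CPM in GF ovaries. These ranges do not overlap, but the lowest CV and the highest GF value lie less than 1 CPM apart, and the log2 fold change was -0.13 (SE 0.0652). In testes Ero1l stood at 18.6, 15.7, 19.6 and 17.0 CPM in CV and at 15.1, 16.6 and 17.4 CPM in GF, with overlapping ranges and a log2 fold change of -0.11 (SE 0.073).

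The balance of the oxidases differed between gonads and with microbiota. Per kilobase of annotated exon, and within each library, the level of Ero1lb over that of Ero1l was 0.836 ± 0.0788 in CV ovaries and 0.494 ± 0.0513 in GF ovaries (SD, n = 4 and 5). This ratio was 12.1 ± 1.31 in CV testes and 6.16 ± 0.343 in GF testes (SD, n = 4 and 3). Ero1l was thus the more abundant oxidase in every ovary library and Ero1lb in every testis library. The summed level of both oxidases was 13.04 ± 0.561 CPM per kb in CV ovaries and 9.67 ± 0.597 in GF ovaries, against 43.7 ± 0.936 in CV and 22.2 ± 0.680 in GF testes. These ratios and sums carry the Ero1lb difference for which the genes were chosen.

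Ero1lb (ENSMUSG00000057069) lies on chromosome 13 at 12565874 to 12611396 of GRCm38, plus strand, and other genes near it also differed. Within 1 Mb of its start, 14 genes were tested in the ovary and 7 were called (6 higher and 1 lower in GF, edgeR quasi-likelihood test, Benjamini-Hochberg adjusted p under 0.05), against 0.177% of all 18095 genes tested. In the testis 15 were tested and 9 called (7 higher, 2 lower), against 8.08% of all 20269 genes tested. Some of the called genes had near-identical values and may share reads, so both counts may overstate the number of separate genes. Protein genes among them moved upward: Gpr137b, a lysosomal membrane protein, rose from a mean of 10.7 CPM in CV ovaries to 22.5 CPM in GF ovaries (log2 1.08, edgeR adjusted p = 0.00252). Ryr2, a calcium release channel, rose in testes from a mean of 1.19 to one of 6.04 CPM (log2 2.34, edgeR adjusted p = 1.62e-14). Heatr1, of ribosome assembly, rose there from 85.9 to 105 CPM (log2 0.29, edgeR adjusted p = 1.81e-07). In ovaries neither Ryr2 (log2 0.52, edgeR adjusted p = 0.144) nor Heatr1 (log2 -0.08, 0.901) was called. In testes Gpr137b was called (log2 0.76, edgeR adjusted p = 0.0121), but not without GF1 (0.102) or GF2 (0.0575). Lgals8 was called higher in ovaries (log2 0.49, edgeR adjusted p = 0.0280) but not in testes (log2 0.03, 0.708). Its ovary call ended on leaving out CV1, CV2, CV3, CV4, GF1, GF2 or GF3, and with a filter of at least 10 CPM.

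The pseudogene CT030166.1, at 12615057 to 12650388 just beyond the 3′ end of Ero1lb, fell in both tissues. Its mean went from 7.53 CPM with microbes to 0.784 CPM without in ovaries (log2 -3.23, edgeR adjusted p = 0.000391), and from 0.598 to 0.101 CPM in testes (log2 -2.52, edgeR adjusted p = 0.00125). Gm2399, a 7SK copy, Prl2c5 and a SNORA73 copy at 13329484 to 13329671 were each called higher in both tissues, with CV means of at most 0.457 CPM. In testes the 7SK copy and Prl2c5 had the same CV and GF means (0.0739 and 3.40 CPM) and the same log2 fold change (5.43). Those of this SNORA73 copy were nearly the same (0.0739 and 3.39 CPM, log2 5.42). These rows may count the same reads and so may not stand for separate genes. Whether they share reads was not tested. A further SNORA73 copy lies inside Ero1lb at 12589565 to 12589791. Its testis mean was 10.5 CPM with microbes and 6.59 CPM without (log2 -0.67, edgeR adjusted p = 1.10e-05), and 1.38 and 1.40 CPM in ovaries (log2 0.02, edgeR adjusted p = 0.991). Not every neighbour was called: for Edaradd, the nearest other tested gene upstream at 45.4 kb, the edgeR adjusted p was 0.931 for ovaries and 0.55 for testes. Its log2 fold change was -0.295 (SE 0.421) in ovaries and -0.287 (SE 0.228) in testes. Its CV and GF means were 0.921 and 0.759 CPM in ovaries and 1.35 and 1.11 CPM in testes. At this low level a change and no change cannot be told apart. In the ovary, Gm2399 was not called without CV1 (adjusted p = 0.0710), CV2 (0.108), CV3 (0.0828), CV4 (0.110), GF3 (0.0615) or GF4 (0.0545), nor Prl2c5 without CV3 (0.0638), all by edgeR. In the fit of both tissues, Gpr137b (0.0985), Heatr1 (0.149) and the SNORA73 copy inside Ero1lb (0.0543) were not called by edgeR in the testis. That fit gives both tissues a shared spread, 14.0% for a typical gene, against 4.17% in testes alone. The part of position in the Ero1lb difference was not tested.

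**Figure D2:**
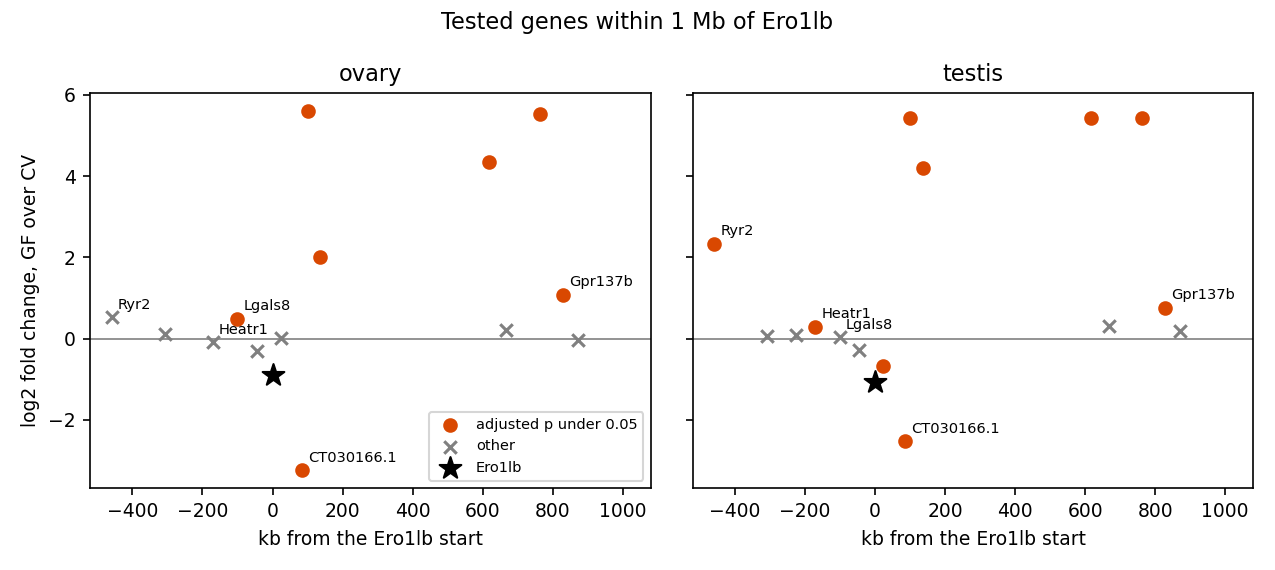
Log2 fold change, GF over CV, of tested genes (points) against the distance in kb of their start from that of Ero1lb (star), in ovary (left) and testis (right). Filled points have an edgeR adjusted p under 0.05: 7 of 14 in the ovary and 9 of 15 in the testis, in both directions. Some filled points have near-identical values and may share reads.

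The 5 genes whose level followed that of Ero1lb most closely over the 16 libraries, after the mean of each tissue was subtracted, were all histone genes: Hist1h4m (Pearson r = 0.980), Hist1h2bm (0.974), Hist1h2bn (0.964), Hist1h4c (0.948) and Hist1h4j (0.942), out of 12168 genes compared. Hist1h4m, Hist1h2bn, Hist1h4c and Hist1h4j lie on chromosome 13, between 21735064 and 23698454, and Hist1h2bm had no position in the annotation used. These correlations largely follow the CV and GF groups and describe the libraries only. Near-identical histone copies share reads, so their single values are uncertain. Among the other 9 genes described here the highest correlation was that of Ero1l (0.557) and the lowest that of Pdilt (-0.389).

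Ero1lb is abundant in antibody-secreting and pancreatic cells, so their markers were read in the same libraries. The 8 plasma cell markers summed to 129 to 159 CPM in CV and 91.2 to 274 CPM in GF ovaries, and to 7.56 to 9.43 CPM in CV and 8.35 to 11.2 CPM in GF testes. Sdc1, which is also made outside plasma cells, was most of the sum, with 97.5 to 114 CPM in CV and 66.4 to 243 CPM in GF ovaries. Without Sdc1 the ovary sums were 26.5 to 61.3 CPM in CV and 16.4 to 36.2 CPM in GF, which overlap. For 2 of the 8 markers the ovary groups did not overlap, both lower in GF: Igj, the antibody joining chain (3.74 to 5.88 against 0.500 to 3.09 CPM), and Fcrl5 (0.153 to 0.923 against 0.0644 to 0.150 CPM). Of all genes tested in the ovary 2.72% did not overlap, and nothing is read from the count. The gap of Fcrl5 rests on library size, since CV3 and GF2 each held 2 counts of it. Igkc, Ighm, Prdm1, Mzb1, Tnfrsf17 and Sdc1 overlapped in the ovary. In testes Igj went the other way without overlap, at low level (0.111 to 0.461 CPM in CV, 0.546 to 0.773 CPM in GF). The 10 pancreas markers summed to at most 8.40 CPM in any library, with Ins1 at 0 in all 4 groups. The 6 spermatocyte markers summed to 4147 to 4281.82 CPM in CV and 4282.25 to 4353 CPM in GF testes. Ldhc was most of the sum (2899 to 3085 and 2964 to 3058 CPM). Piwil1 was higher in GF without overlap (329 to 371 against 417 to 422 CPM). So were Spo11 (68.4 to 74.7 against 76.3 to 82.7) and Spag6 (349 to 372 against 375 to 383). The 6 spermatid markers summed to 11708 to 12618 and 11413 to 12148 CPM. Among them Acrv1 was lower in GF without overlap (181 to 199 against 169 to 180 CPM). The other markers of both lists overlapped. Of all genes tested in the testis 17.1% did not overlap, and nothing is read from these. The part of these cell types in the Ero1lb difference of either tissue was not tested.

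The 3 germ cell chaperones were abundant in testes and scarce in ovaries. Clgn, the calnexin relative of spermatocytes and spermatids, stood at 710, 711, 728 and 771 CPM in CV testes and at 738, 714 and 756 CPM in GF testes, with overlapping ranges (log2 0.01, SE 0.0289). All 9 ovaries together held 16 counts of it, 8 in each group. Its level in testes over ovaries was 5212-fold among CV libraries (95% exact counting interval 2645 to 12073) and 6658-fold among GF libraries (3379 to 15423), by library totals. Pdilt stood at 230, 240, 240 and 211 CPM in CV testes and at 212, 224 and 215 CPM in GF testes, again overlapping (log2 -0.08, SE 0.037).

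No Pdilt count was found in the 4 CV ovaries, and 4 counts were found in the 5 GF ovaries. Against a floor of 3 counts over the group, Pdilt was at least 4372-fold higher in CV testes than in CV ovaries. Among GF libraries the ratio was 3930 (95% exact counting interval 1534 to 14424). These intervals and floors cover counting error only. Clgn and Pdilt did not pass the filter on low counts in the ovary, so no difference between GF and CV ovaries is given for them.

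Calr3, the calreticulin relative, was the one germ cell chaperone with clear counts in the ovary. It stood at 3.82, 2.50, 4.20 and 4.45 CPM in CV and at 3.25, 3.52, 3.73, 3.24 and 3.15 CPM in GF ovaries, from 37 to 62 counts per library. The ranges overlap, and the log2 fold change was -0.15 (SE 0.182). In testes it stood at 134, 147, 145 and 133 CPM in CV and at 153, 156 and 144 CPM in GF, where the highest CV library lies above the lowest GF library (log2 0.11, SE 0.0369).

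Isomerase RNA showed no comparable difference. P4hb, the archetypal disulphide isomerase and a subunit of prolyl hydroxylase, stood at 648, 747, 715 and 734 CPM in CV and at 741, 735, 747, 707 and 712 CPM in GF ovaries (log2 0.04, SE 0.0522). In testes it lay between 82.0 and 86.9 CPM in CV and between 83.6 and 87.9 CPM in GF (log2 0.01, SE 0.0364). Pdia3, the isomerase that works with calnexin and calreticulin on glycoproteins, lay between 517 and 564 CPM in CV and 510 and 592 CPM in GF ovaries, and between 261 and 283 and between 268 and 288 CPM in testes. Its log2 fold changes were 0.01 (SE 0.0542) and 0.03 (SE 0.0311). Pdia6, which also damps ER stress signalling, lay between 301 and 334 CPM in CV and 308 and 370 CPM in GF ovaries (log2 0.06, SE 0.0628). In testes it lay between 157 and 164 CPM in CV and between 148 and 162 CPM in GF (log2 -0.03, SE 0.0333).

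**Figure D3:**
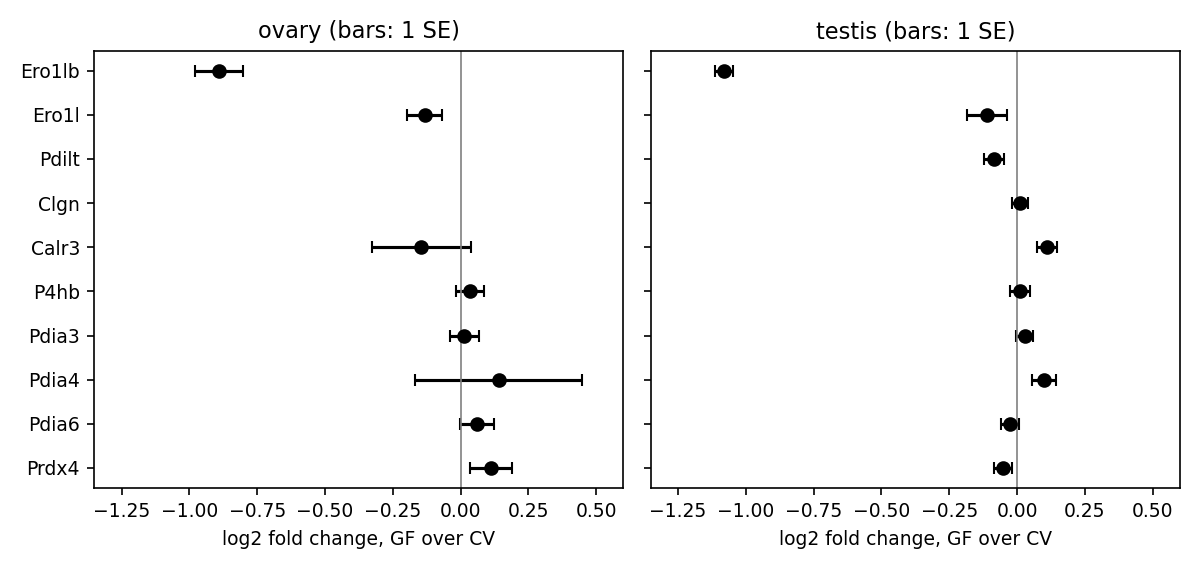
Log2 fold change, GF over CV, of the 10 genes in the ovary (left) and testis (right), with bars of 1 SE from edgeR. Clgn and Pdilt were not tested in the ovary. Ero1lb stands at -0.89 and -1.08, and the other values lie between -0.15 and 0.14.

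Pdia4, an isomerase with an extra active domain, varied most between ovaries. It stood at 351, 412, 431 and 460 CPM in CV and at 356, 876, 369, 353 and 325 CPM in GF ovaries. The library GF2, with 876 CPM, lay far above the other 8 ovaries, and the other 4 GF values lay at the low end of the CV range or below it. The log2 fold change was 0.14 (SE 0.307) with GF2 and -0.24 without it. In the same library Akr1c18, the progesterone-inactivating enzyme known as a sign of luteal regression, stood at 487 CPM, against 0.147 to 48.6 CPM in the other ovaries. The other corpus luteum markers did not stand apart. In GF2 Ptgfr (316 CPM), Star (345), Prlr (523), Cyp11a1 (2818) and Lhcgr (123) lay within the range of the other ovaries. The 6 corpus luteum markers summed to 4612 CPM there, within the 3322 to 6444 CPM of all GF ovaries, and the 7 granulosa markers to 1260 CPM, the lowest of the GF ovaries. GF2 also had the lowest oocyte marker sum of the GF ovaries (161 CPM, the others 197 to 270) and the highest plasma cell marker sum (274 CPM, the others 91.2 to 168), of which Sdc1 was 243 CPM. The part of cyclic stage or cell makeup in this value was not tested. A microRNA gene, Mir704, overlaps Pdia4 exons by 14 bases. In testes Pdia4 lay between 50.1 and 55.3 CPM in CV and between 53.2 and 57.6 CPM in GF (log2 0.10, SE 0.0445), with no library apart.

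**Figure D4:**
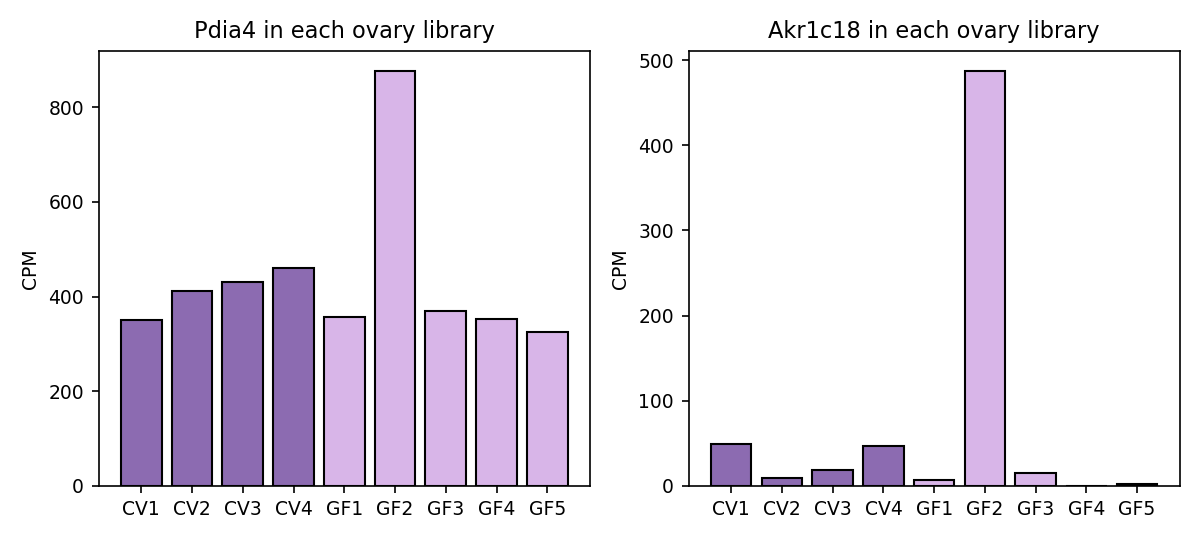
CPM of Pdia4 (left) and of Akr1c18 (right) in each ovary library, as bars from 0, for CV1 to CV4 and GF1 to GF5. GF2 stands at 876 CPM for Pdia4 and 487 CPM for Akr1c18, above the other 8 ovaries in both.

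Prdx4, the ER peroxidase, stood at 52.5, 50.5, 53.2 and 57.4 CPM in CV and at 60.9, 50.4, 53.2, 61.8 and 62.1 CPM in GF ovaries, overlapping (log2 0.11, SE 0.0779). In testes it stood at 149, 159, 157 and 147 CPM in CV and at 149, 150 and 144 CPM in GF (log2 -0.05, SE 0.0335). It was thus, beside Ero1lb, the other gene of the oxidation step with higher CPM in testis than in ovary.

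Among the genes tested, 1 of 8 in the ovary and 1 of 10 in the testis passed an edgeR adjusted p under 0.05, Ero1lb in each case and lower in GF. Of all genes, 0.177% and 8.08% passed, with 0.111% higher and 0.0663% lower in the ovary and 3.67% higher and 4.41% lower in the testis. Groups did not overlap for 2 of 8 in the ovary (Ero1lb and Ero1l) and 1 of 10 in the testis (Ero1lb), against 2.72% and 17.1% of all genes. Nothing is read from these counts, since the genes were chosen with these contrasts known. For the difference between tissues in the response, 0 of 10 passed by edgeR. At an unadjusted p under 0.05 there were 2, neither of which carries information: Ero1lb, for which the genes were chosen, and Pdilt, whose ovary side is 0 counts in CV against 4 in GF and which entered this fit only through its testis level. Of all 21977 genes tested 0.132% passed the adjusted threshold, 0.0728% higher and 0.0592% lower, and 1524 lay at an unadjusted edgeR p under 0.05. In DESeq2 and limma-voom fits the counts of 1, 1 and 0 were the same. The median log2 fold change of the genes tested was 0.02 for ovaries and -0.01 for testes, against 0.01 and 0.00 over all genes.

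Levels per kilobase of exon ordered the 10 genes differently in the 2 gonads. In CV ovaries P4hb led with 248 ± 15.4 CPM per kb (SD, n = 4), followed by Pdia4 (172 ± 19.3) and Pdia3 (171 ± 6.98), whose ranges overlap. Pdia6 (86.3 ± 4.02), Prdx4 (25.4 ± 1.38), Ero1l (7.10 ± 0.145), Ero1lb (5.93 ± 0.542) and Calr3 (1.91 ± 0.442) followed with no overlap between neighbours, and Clgn and Pdilt were last. In CV testes Clgn led with 181 ± 7.14 CPM per kb, followed by Pdilt (101 ± 5.93) and Pdia3 (86.5 ± 2.88). Prdx4 (72.7 ± 2.83) and Calr3 (71.3 ± 3.65) came next with overlapping ranges, then Pdia6 (42.7 ± 0.853), Ero1lb (40.3 ± 0.991), P4hb (29.7 ± 0.792), Pdia4 (21.8 ± 0.927) and Ero1l (3.35 ± 0.328). In GF testes Ero1lb, at 19.1 ± 0.506 CPM per kb (SD, n = 3), stood below P4hb (29.9 ± 0.746) and Pdia4 (23.4 ± 1.01), which lie below it in CV testes.

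**Figure D5:**
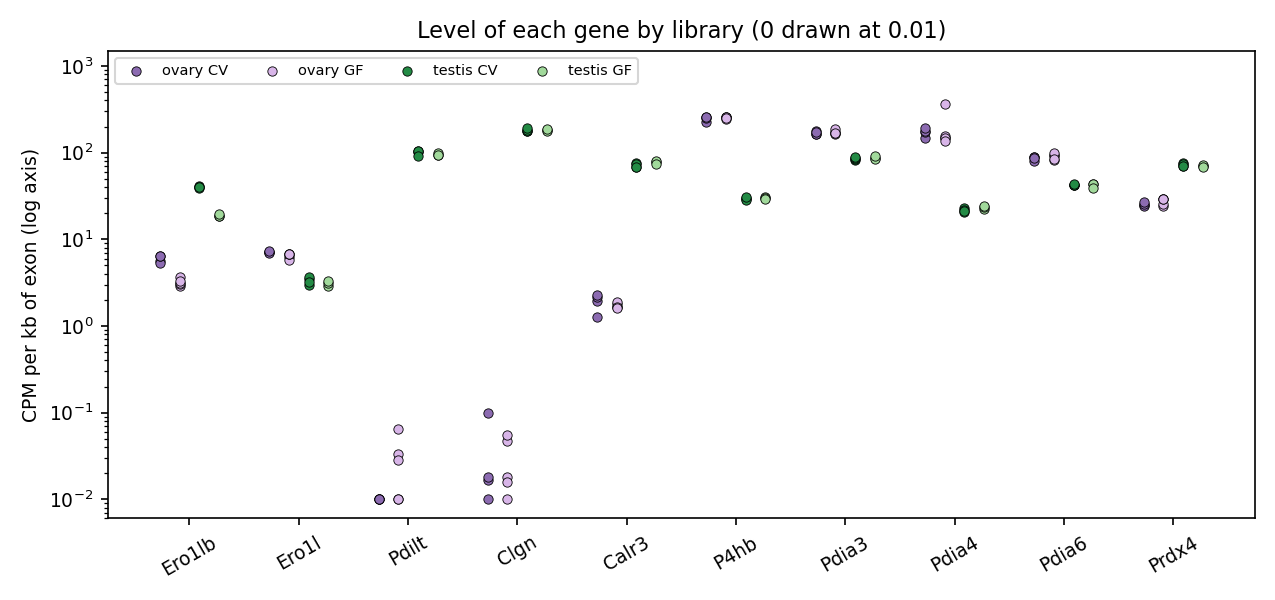
CPM per kb of annotated exon (log axis) of the 10 genes in each library, by group, with libraries at 0 drawn at 0.01. P4hb leads in CV ovaries at 248 CPM per kb and Clgn in CV testes at 181, and Clgn and Pdilt lie below 0.1 in every ovary.

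The contrast between gonads asks which folding genes each tissue uses, and tissue and sex cannot be told apart in it. With all 16 libraries in 1 fit and TMM scaling, all 10 genes passed an edgeR adjusted p under 0.05 between CV testes and CV ovaries, 5 higher and 5 lower in the testis. That is no sign of anything particular, since 90.3% of all genes passed, 46.3% higher and 44% lower. Library ranges were compared in CPM, whose sizes were scaled within each tissue and not between tissues as in this fit. In CPM they did not overlap for any of the 10, as for 90.4% of all genes. The same 5 and 5 passed between GF testes and GF ovaries, against 89.8% of all genes (46.1% higher, 43.7% lower), again with no overlapping ranges (89% of all genes). Ero1lb was 11.9-fold higher in CV testes (log2 3.57, SE 0.074, edgeR adjusted p = 2.72e-18) and 10.3-fold higher in GF testes. Calr3 was 65.6-fold (log2 6.03, SE 0.109) and Prdx4 5.03-fold higher in CV testes (log2 2.33, SE 0.0677). P4hb (log2 -2.26, SE 0.0486) and Pdia4 (log2 -2.17, SE 0.272) were lower in CV testes, at 0.209 and 0.222 of the ovary level.

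For Ero1l, Pdia3 and Pdia6 the tissue call depended on scaling. With TMM the log2 difference, CV testis over CV ovary, was -0.27 (edgeR adjusted p = 0.00309), -0.17 (0.0032) and -0.21 (0.00234). With median-of-ratios scaling it was -0.12 (edgeR adjusted p = 0.154), -0.02 (0.705) and -0.05 (0.388), and none was called. With library totals, added after the data were seen, it was -1.08, -0.98 and -1.01. The median of all genes stood at 0.05 with TMM, 0.20 with median-of-ratios, -0.46 with upper quartile scaling and -0.76 with totals, so values between tissues are read against that shift. The signs of all 10 genes were the same under these 4 scalings. Between GF testes and GF ovaries, Ero1l and Pdia3 were likewise not called with median-of-ratios scaling (edgeR adjusted p = 0.154 and 0.59), and Pdia6 was (0.0181).

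Other genes of ER folding were read from 4 lists, 77 genes in all. In the ovary 67 were tested and 0 called by edgeR between GF and CV, as by DESeq2 and limma-voom. At an unadjusted edgeR p under 0.05 there were 4, against 1172 of all 18095 genes tested. The list medians ran from -0.16 to 0.06 on the log2 scale, against 0.01 over all genes. The most abundant members stood at similar levels: the chaperone Hsp90b1 at 1043 ± 28.1 CPM in CV and 1102 ± 97.8 in GF, the lectin chaperone Calr at 815 ± 68.4 and 853 ± 57.7, the isomerase Txndc5 at 271 ± 23.8 and 278 ± 26.2, and the sulfotransferase Tpst2 at 65.5 ± 24.0 and 65.5 ± 30.9 (SD, n = 4 and 5). None of these 4 was called by edgeR (adjusted p of at least 0.879).

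In the testis 73 of the 77 were tested and 4 called by edgeR, 2 higher and 2 lower in GF. That share is under the 8.08% of all genes. At an unadjusted edgeR p under 0.05 there were 13, against 3939 of all 20269 genes tested. Of 21 genes of oxidative folding 1 fell: Sep15, a thioredoxin-like selenoprotein that binds the glycoprotein sensor UGGT, from 117 to 108 CPM (log2 -0.12, edgeR adjusted p = 0.0318). Of 25 genes of the unfolded protein response and general chaperones 2 rose and 1 fell. Dnajb11, a cochaperone of BiP, rose from 88.8 to 102 CPM (log2 0.20, edgeR adjusted p = 0.000123), Herpud1, of ER-associated degradation, from 173 to 192 CPM (log2 0.15, 0.00284), and Creld2, a PDI-like stress-induced protein, fell from 199 to 185 CPM (log2 -0.10, 0.0362). Leaving out single libraries ended several of these calls. Herpud1 was not called without GF1 (edgeR adjusted p = 0.0724). Sep15 was not called without CV1 (0.164), GF1 (0.168), GF2 (0.0701) or GF3 (0.0529), and Creld2 was called by edgeR without CV4 (0.00209) and without no other library. None of 13 calnexin cycle genes and none of 14 genes of the sperm surface list was called by edgeR in the testis, with 1 of each at an unadjusted p under 0.05 and list medians of 0.03 and 0.02. The most abundant members there were Calr (530 ± 11.8 CPM in CV, 529 ± 1.97 in GF), Hsp90b1 (659 ± 15.2 and 676 ± 4.39), Dnajc10, an ER reductase (120 ± 6.54 and 116 ± 2.12), and Adam3 (SD, n = 4 and 3).

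The list made for sperm surface proteins served by the germ cell chaperones is a broader one. Not every gene in it, such as the sulfotransferase Tpst2, codes for a surface protein known to need them. Its genes were listed for their part in sperm, so a higher level in testis was largely fixed by that choice and is only described. Of the 14 genes 13 were higher in CV testes than in CV ovaries, the exception being Tpst2, and 5 of the 14 passed the filter on low counts in the ovary. Adam3, whose protein needs all 3 chaperones, stood at 1477 ± 25.4 CPM in testes of CV animals and 1473 ± 40.2 CPM in those of GF animals (SD, n = 4 and 3; edgeR adjusted p = 0.961). Among the remaining folding lists, Creld2 (log2 2.97) and Herpud1 (2.33) were higher in CV testes, and Txndc5 (-2.30), the peroxidases Gpx7 (-4.41) and Gpx8 (-3.89) and the stress factor Xbp1 (-2.97) were lower, all called by edgeR.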

How the data were processed

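The authors deposited raw read counts per gene for 16 libraries, whole numbers and not normalised. Per the submitters' processing notes, reads were aligned with STAR 2.4.0i, and mm10 was the build. For the counting tool, the annotation and the use of strand, nothing is stated in those notes or labels, so reads of genes that overlap on opposite strands (as Catsper2 does Pdia3 and Acsm5 does Pdilt) cannot be told apart. Per the labels' protocols, 250 ng of total RNA was depleted of ribosomal RNA and amplified for 12 cycles. All 16 columns matched a sample title.

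The counts were tested with edgeR 4.0.16 (R 4.3.3): TMM scaling, edgeR's expression filter, robust quasi-likelihood F tests, and Benjamini-Hochberg adjustment over all genes tested, with 0.05 as the threshold. GF and CV were compared within each tissue, and tissues and the interaction in 1 fit of all libraries. That fit gives both tissues a shared spread, 14.0% for a typical gene, against 18.5% in ovaries and 4.17% in testes alone. SE is the log2 fold change over the root of F. The test was checked on simulated counts. Alternatives were DESeq2 1.42.0, limma-voom (limma 3.58.1), other scalings and filters, a replicate block and leaving out each library. Positions and exon lengths came from GENCODE M21 (GRCm38, the assembly of mm10; 36308 of 38087 genes), and promoters from RefSeq.

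The members and lists were chosen with earlier results of these data known. Named were the 10 genes, called list members (up to 6 per list and tissue) and the most abundant member of each, called genes within 1 Mb of Ero1lb (up to 6 per tissue), and the 5 genes most like Ero1lb (log2 CPM, prior count 2, mean of at least 1 CPM in each tissue, unnamed genes passed over). Edaradd, Lgals8, the SNORA73 copy in Ero1lb, Mir704 and the testis to ovary examples of the lists were chosen after their values were seen. So were the cell type markers given singly, such as Akr1c18. Replicate pairs differed by more than sampling noise (chi-square per degree of freedom 2.37 to 34.3, genes with at least 20 counts). Replicate numbers come from the titles. In the ovary, CV and GF libraries of the same number deviated together (r = 0.399, 0.283, 0.236 and 0.393). The best GF partner was that of the same number for CV1 and CV4, but GF5 for CV2 and GF4 for CV3. A shared number therefore does not by itself mark a pair. Libraries of the same number were treated as paired in an alternative fit only.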

Additional observations from a re-analysis of the deposited data

Results flagged for a closer look

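Among 26 groups of 4 or 5 libraries examined for the 10 genes, 1 held a library far from the others: Pdia4 in GF ovaries, where GF2 stood at 876 CPM, the next library at 369 and the lowest at 325 CPM. The gap was 0.92 of the group's range, against a threshold of 0.71 that chance passes in about 1 group of 20.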

How the results depend on the processing

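The genes were chosen for the Ero1lb difference in these libraries, so its recurrence is no support for it: its log2 fold change ran from -0.95 to -0.85 over 18 alternatives in the ovary and from -1.11 to -1.07 over 16 in the testis, and the count called in the ovary was 1 in each. The count in the testis was 2 in place of 1 with library totals and with no filter on low counts, where Calr3 was added. Over libraries left out it ran from 1 to 2, with Calr3 added without CV2 or GF3 and Pdilt without CV4. Of the list genes, the joint fit of both tissues called 1 in the ovary in place of 0 (Ddit3, log2 0.43, edgeR adjusted p = 0.0436) and 0 in the testis in place of 4. That fit gives the tissues a shared spread, though they differ in it. Over libraries left out the testis count ran from 2 to 8, being 2 without CV1, GF1, GF2 or GF3 and 8 without CV4. Other settings gave 4 to 6 in the testis and 0 in the ovary. Between tissues 7 to 10 of the 10 genes were called for CV and 8 to 10 for GF libraries. No called value of the 10 genes changed sign. Of 1023 recomputed values of these genes, 77 moved by more than 1 SD between libraries, 71 of them in comparisons between tissues and 6 in the interaction.

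With the replicate block the count of the 10 genes called was 1 in the ovary, 2 in the testis (Ero1lb and Pdilt), 0 for the interaction, 10 between CV tissues and 8 between GF tissues, where Ero1l (0.0575) and Pdia3 (0.0734) were not called. List genes called with the block were 0 in the ovary and 6 in the testis. In the testis, libraries of the same number did not deviate together (r = -0.0027, 0.0934 and -0.0119). These few values cannot tell whether such libraries share more than a number, which the labels do not state. CV4 drops out of the fit with the block. Clgn and Pdilt in the ovary are limited by depth, at 8 and at most 4 counts per group.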
